A study of Mus musculus with 6 samples.

Results

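The core circadian clock genes are the 10 genes Arntl (also called Bmal1), Clock, Npas2, Per1, Per2, Per3, Cry1, Cry2, Nr1d1 and Nr1d2. They were taken by gene symbol, not by a cutoff on measured values, from count tables that list 43629 genes. The choice was made with earlier results of these data known. The tables hold mRNA sequencing of left ventricles from CD-1 mice, an outbred strain. The dams were injected intraperitoneally once daily from embryonic day 6.5 to 9.5 with normal saline (the vehicle group) or with 20 mg/kg caffeine, which blocks adenosine receptors, and another passage of the labels gives a later last day. The ventricles of male offspring were taken at 1 year of age, with 3 hearts in each group. The study also lists echocardiography, and dobutamine treatment at younger ages, for offspring of this exposure. Whether the sequenced mice had these is not given in the sources used here. The labels do not say which dam each heart came from. The p-values therefore treat the 6 hearts as independent, which hearts that share a dam would not be. The time of day at which the hearts were taken and the light schedule are not given in the sources used here.

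The circadian clock is a feedback loop of transcription. A dimer of ARNTL with CLOCK, or with its relative NPAS2, binds E-box sequences and turns on the Per, Cry, Nr1d1 and Nr1d2 genes, and the PER and CRY proteins then return to the nucleus and block that dimer. NR1D1 and NR1D2 (REV-ERB alpha and beta) repress Arntl through ROR elements, so that in heart muscle, as in other tissues with a running clock, Arntl mRNA peaks at a different time of day from Nr1d1 and Per mRNA, and the order of these genes in a tissue sample depends on the hour of collection.

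The sequences through which the loop acts are shown here because a reader can then see which members carry the elements of the loop next to their start. RefSeq start-site windows (GRCm38.p6, 250 bases before to 50 after a start) were at hand for 9 of the 10 members, all but Per2, in 13 windows. Both strands were searched for 5 motifs. The E-box of the ARNTL dimer was spelled CACGTG and its variant was spelled CACGTT, which reads as AACGTG on the other strand. The D-box, bound by DBP, TEF and HLF and by the repressor NFIL3, was spelled TTATGNAA. The ROR element was spelled TAGGTNA, and the cAMP response element of signal-driven genes was spelled TGACGTCA. No match printed here overlapped a match to another motif. Each run below reads 5′ to 3′ on the strand of the gene, with the match in capitals and 10 bases on either side.
Arntl, chr7:113207495-113207521 (+): ggtcggaaagTAGGTTAgtggtgcgac
Arntl, chr7:113207531-113207557 (+): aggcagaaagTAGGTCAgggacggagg
Per1, chr11:69098773-69098798 (+): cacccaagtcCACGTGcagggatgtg
Per1, chr11:69098915-69098942 (+): gggcctggcaTTATGCAAcccgcctccc
Per3, chr4:151044853-151044880 (-): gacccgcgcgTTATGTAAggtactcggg
Per3, chr4:151044806-151044833 (-): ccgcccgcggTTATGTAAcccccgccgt
Cry1, chr10:85185099-85185124 (-): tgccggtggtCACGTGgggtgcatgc
Cry1, chr10:85185118-85185143 (-): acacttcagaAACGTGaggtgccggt
Cry2, chr2:92434220-92434245 (-): acatggtgggAACGTGagggggcgga
Nr1d1, chr11:98775390-98775415 (-): cacagatctcAACGTGccggctgctg

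The pair of ROR elements stood in the Arntl window alone among the 9 members, 6 bases before and 30 bases after one of its starts. An E-box was present in the windows of 2 of 9 members, Per1 (166 bases before the start) and Cry1 (60 before). The E-box variant was present in 3 of 9, at 79 bases before the start in Cry1, 166 in Cry2 and 28 in Nr1d1. The D-box was present in 2 of 9, once in Per1 (24 bases before the start) and at 205 and 158 bases before the start of Per3. The cAMP response element was present in 0 of 9, and the windows of Clock, Npas2 and Nr1d2 held none of the 5 motifs. Of all 32851 mouse windows of this length, 7.15% held the E-box, 4.68% the variant, 3.38% the D-box, 8.29% the ROR element and 1.79% the cAMP response element. These shares are per window, while the counts of members are per gene, with a match in any of its windows. A match describes the letters only, and elements outside these windows were not searched.

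Library totals were 9228359 to 10483101 counts in the vehicle hearts and 7613011 to 9153997 in the caffeine hearts, with every caffeine total below every vehicle total. Levels are given as CPM, the counts of a gene per 1000000 counts of its library, scaled for library composition, and a count of 0 allows up to 0.283 to 0.419 CPM (3 counts, counting error only). Markers of ventricular cardiomyocytes summed to 48973–57228 CPM in the vehicle and 48486–52443 CPM in the caffeine hearts, while the 4 atrial markers summed to at most 2.34 CPM and fat cell markers to at most 1.76 CPM, with Ucp1 at 0 in every heart. The summed fibroblast markers were higher in every caffeine heart (988–1133 CPM) than in any vehicle heart (748–902 CPM), with 0 of 5 past the threshold in edgeR's test, and the sums for red cell, endothelial, macrophage, smooth muscle and skeletal muscle markers overlapped between groups. Their part in the values below was not tested.

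The levels of the clock genes can be set against each other only per length of annotated exon. In the vehicle hearts the highest level was that of Nr1d2, at 17.5 ± 0.736 CPM per kilobase (SD, n = 3), followed by Nr1d1 at 14.0 ± 3.86 and Per1 at 8.62 ± 2.98. Cry2 stood at 6.60 ± 0.890 and Cry1 at 5.14 ± 0.960 CPM per kilobase, while Clock (3.47 ± 0.171) and Per2 (3.31 ± 0.907) were close to each other. Per3 was lower, at 1.59 ± 0.239 CPM per kilobase, and the other activators closed the order, with Arntl at 0.564 ± 0.162 and Npas2 at 0.129 ± 0.0280. The caffeine hearts ran from 18.0 ± 7.43 CPM per kilobase for Nr1d1 and 17.0 ± 1.03 for Nr1d2 down to 0.525 ± 0.224 for Arntl and 0.243 ± 0.0682 for Npas2.

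Some neighbours in that order could not be separated. Within single hearts Nr1d2 exceeded Nr1d1 in 5 of 6, with a mean log2 ratio of 0.18 ± 0.53 (SD over 6 hearts), and Clock exceeded Per2 in 4 of 6 (0.06 ± 0.24). Per1 exceeded Cry2 in 4 of 6 hearts (0.50 ± 0.49) and Cry2 exceeded Cry1 in 5 of 6 (0.31 ± 0.22). The other 5 steps of the order held in all 6 hearts, with the widest between Arntl and Npas2 (1.59 ± 0.76) and between Per3 and Arntl (1.55 ± 0.74). On the per-length scale every repressor was above Arntl and Npas2 in every heart.

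**Figure D1:**
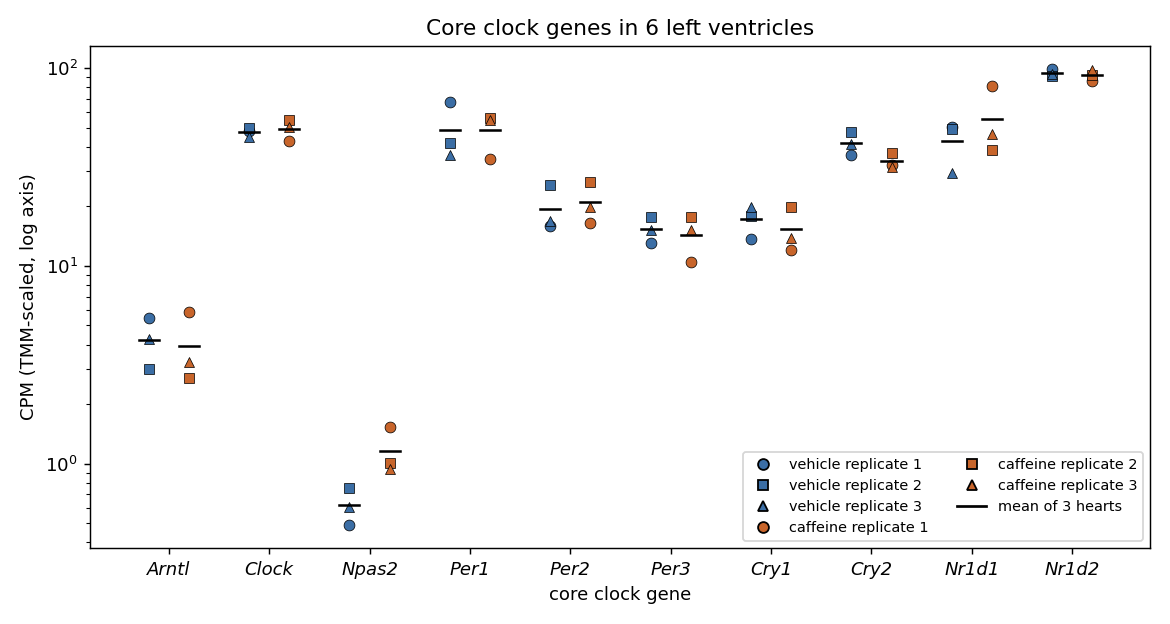
Level of each core clock gene in each heart, in CPM on a log axis, with a point per heart and a bar for the mean of each group. The points of the groups overlap for every gene but Npas2, and the single high Nr1d1 point is caffeine heart 1 at 81.5 CPM.

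Whether exposure before birth was followed by another level of clock gene mRNA in the adult ventricle was asked by comparing the 3 caffeine with the 3 vehicle hearts in edgeR's quasi-likelihood test over 13092 genes. Of the 9 clock genes tested, 0 passed an adjusted p of 0.05 with a 1.5-fold change, and 14 of all genes tested (0.107%) did. The count was also 0 with edgeR's exact, likelihood-ratio and robust tests, with DESeq2 and with limma-voom. At an unadjusted p of 0.05, 1 of 9 (11.1%), Cry2, was past the threshold, beside 8.82% of all genes. The hearts of the groups were apart for 0 of 9, beside 14.2% of all genes. The log2 differences (caffeine minus vehicle) were above 0 for 4 and below 0 for 5, with a median of -0.04 and a median size of 0.12, against 0.00 and 0.12 over all genes. In tissue RNA such as this, fewer cells of a type and less RNA per cell cannot be told apart.

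Arntl, the activator whose product partners CLOCK, lies at chr7:113207465-113314126 (+, GRCm38 as for all positions) and was measured at 5.46, 3.02 and 4.25 CPM in vehicle hearts 1 to 3 and at 5.87, 2.70 and 3.28 CPM in caffeine hearts 1 to 3. The groups overlapped, with vehicle heart 1 and caffeine heart 1 high in their groups and the second heart of each low. The log2 difference was -0.12 (SE 0.33, 95% interval -0.84 to 0.60, adjusted p = 0.955, quasi-likelihood test). These levels rest on 24 to 56 reads a heart, so that counting alone gives a coefficient of variation of 13.4% to 20.4%. The spread among hearts was 28.7% in the vehicle and 42.7% in the caffeine group.

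Clock encodes the partner subunit of ARNTL and lies at chr5:76209868-76304792 (-). It was even across hearts, at 48.2, 49.6 and 45.0 CPM with vehicle and 42.8, 54.4 and 50.2 CPM with caffeine. Caffeine hearts 1 and 2 enclosed all the others, and the log2 difference was 0.05 (SE 0.11, interval -0.19 to 0.28, adjusted p = 0.946, quasi-likelihood test).

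Npas2, which can stand in for Clock, lies at chr1:39193731-39363236 (+) and was near the limit of detection. It had 5, 8 and 6 counts in the vehicle hearts (0.488, 0.756 and 0.607 CPM) and 11, 9 and 8 in the caffeine hearts (1.54, 1.01 and 0.936 CPM). Every caffeine heart was above every vehicle heart, the only clock gene of which that was true, but the gene was under the count filter and was left out of the main test. The two-sided exact permutation p was 0.1, the smallest that 3 hearts against 3 allow. Fitted without the count filter, the log2 difference was 0.86 (quasi-likelihood adjusted p = 0.780). Counting error alone is 30.2% to 44.7% at these counts, so a difference of this size was not established at this depth.

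Among the Period genes, whose proteins form the repressing complex with the cryptochromes, Per1 (chr11:69095217-69109960, +) varied most. Its values were 67.7, 41.7 and 36.2 CPM with vehicle and 34.7, 56.2 and 54.7 CPM with caffeine. Vehicle heart 1 was the highest and caffeine heart 1 the lowest of all 6, and the group means were equal at 48.5 ± 16.8 and 48.5 ± 12.0 CPM (SD, n = 3). The log2 difference was 0.00 with an interval from -0.50 to 0.51 (SE 0.23, adjusted p = 0.998, quasi-likelihood test).

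Per2 (chr1:91415982-91459324, -) is a Period gene whose loss disturbs daily rhythms in mice. It was measured at 15.9, 25.5 and 16.8 CPM in the vehicle and 16.5, 26.6 and 19.8 CPM in the caffeine hearts. Heart 2 of each group was high and the others were near each other. Between the groups the log2 difference was 0.12 (SE 0.21, interval -0.35 to 0.58, adjusted p = 0.928, quasi-likelihood test).

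Per3 (chr4:151003652-151044665, -), which carries the pair of D-boxes shown above, was measured at 13.1, 17.7 and 15.2 CPM with vehicle and 10.5, 17.7 and 15.1 CPM with caffeine. Hearts 2 and 3 of the groups had nearly the same values, and caffeine heart 1 was the lowest. The groups overlapped, with a log2 difference of -0.08 (SE 0.19, interval -0.50 to 0.34, adjusted p = 0.953, quasi-likelihood test).

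Of the cryptochromes, the stronger repressors of the ARNTL dimer, Cry1 (chr10:85131700-85185064, -) was measured at 13.7, 17.9 and 19.9 CPM in the vehicle and 12.0, 19.8 and 13.9 CPM in the caffeine hearts. The groups overlapped, and heart 1 was the lowest in each. Caffeine less vehicle gave a log2 difference of -0.16 (SE 0.20, interval -0.60 to 0.28, adjusted p = 0.882, quasi-likelihood test).

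Cry2 (chr2:92403646-92434043, -) had the smallest p of the clock genes. It was measured at 36.3, 47.5 and 41.4 CPM with vehicle (41.7 ± 5.63) and at 32.3, 37.3 and 31.5 CPM with caffeine (33.7 ± 3.15, SD, n = 3). Caffeine heart 2 was above vehicle heart 1, and the other caffeine hearts were below all vehicle hearts. Its log2 difference was -0.31 (SE 0.12, interval -0.58 to -0.04). Its unadjusted p was 0.0296 and its adjusted p over all genes 0.501 (quasi-likelihood test), with a two-sided exact permutation p of 0.200. Without vehicle heart 2, vehicle heart 3, caffeine heart 1 or caffeine heart 3 the unadjusted p was over 0.05. Its exons share 295 bases with D930015M05Rik on the other strand, which had at most 2 counts in any heart.

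Nr1d1 (chr11:98767932-98775333, -) encodes REV-ERB alpha, the repressor of Arntl, and was measured at 50.5, 49.2 and 29.3 CPM with vehicle and 81.5, 38.5 and 46.4 CPM with caffeine. Caffeine heart 1 stood far above the rest, vehicle heart 3 was the lowest, and the other caffeine hearts lay within the vehicle range. The log2 difference of 0.36 was the largest of the 9 tested (SE 0.26, interval -0.22 to 0.94, adjusted p = 0.761, quasi-likelihood test), and without caffeine heart 1 it was -0.02. The exons of Nr1d1 share 263 bases, 8.55% of its exon length, with Thra, the thyroid hormone receptor alpha gene on the other strand. The strand setting of the counting is not given in the sources used here, so reads from that stretch cannot be told apart. Thra stood at 72.9, 82.7 and 76.7 CPM with vehicle and 81.5, 66.2 and 65.8 CPM with caffeine, with a log2 difference of -0.12 (SE 0.11, adjusted p = 0.801, quasi-likelihood test).

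Nr1d2 (chr14:18204054-18239127, -) encodes REV-ERB beta and was the steadiest clock gene. Its values were 99.1, 91.4 and 93.3 CPM with vehicle and 86.1, 92.3 and 97.2 CPM with caffeine, all close together. Its log2 difference was -0.04 (SE 0.09, interval -0.23 to 0.15, adjusted p = 0.939, quasi-likelihood test).

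**Figure D2:**
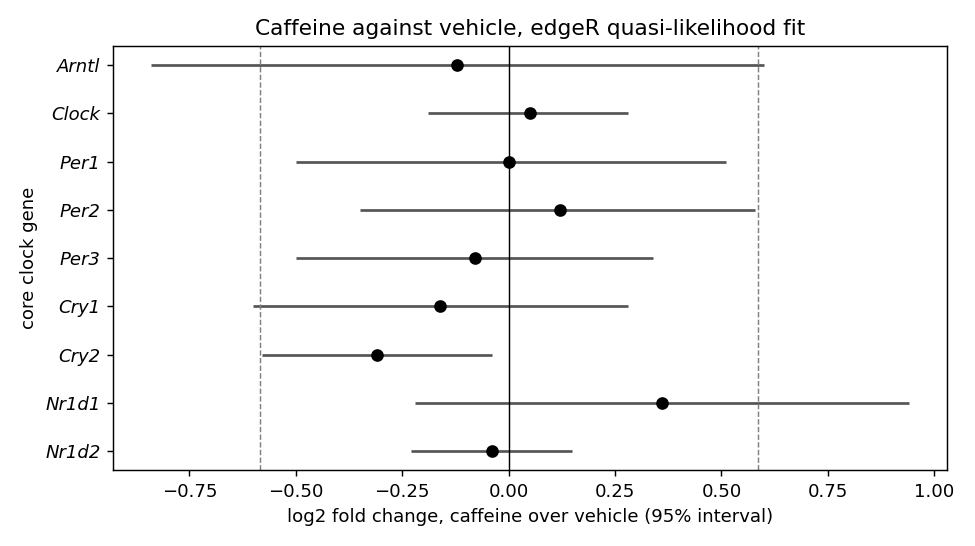
Log2 difference between caffeine and vehicle hearts for the 9 tested clock genes, with points for the estimate and bars for the 95% interval of the quasi-likelihood fit. The estimates run from -0.31 (Cry2) to 0.36 (Nr1d1), and the Cry2 bar is the only one that does not cross 0.

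Since clock phase is a property of each heart at the time it was taken, the hearts were also compared with each other. The within-group SD of log2 CPM, pooled over the groups, was 0.50 for Nr1d1, 0.48 for Arntl and 0.43 for Per1, higher than in 94.1%, 93.3% and 90.7% of the genes tested. It was 0.36 for Per2, 0.32 for Cry1 and 0.31 for Per3, against a median of 0.18 over all genes. Cry2 (0.17), Clock (0.13) and Nr1d2 (0.07) were below that median. The 6 genes above it were also the 6 whose dispersion lay over the trend for their expression level. Nr1d1 had a biological coefficient of variation of 22.6% against 10.7% on the trend, and Per1 had 19.9% against 10.7%. For Arntl, with its low counts, the excess was smaller, at 24.5% against 19.7%. The highest and lowest of the 6 hearts were 2.76-fold apart for Nr1d1, 2.08-fold for Arntl and 1.95-fold for Per1, and 1.27-fold for Clock and 1.15-fold for Nr1d2.

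Caffeine heart 1 held more of the extremes than any other heart. It had the highest Arntl, Npas2 and Nr1d1 and the lowest Clock, Per1, Per3, Cry1 and Nr1d2 of the 6 hearts. Against the mean of all hearts on the log2 scale it stood at 0.79 for Nr1d1, 0.73 for Npas2 and 0.55 for Arntl, and at -0.47 for Per3, -0.44 for Per1 and -0.40 for Cry1. Caffeine heart 2 had the highest Clock, Per2 and Per3 and the lowest Arntl. Vehicle heart 1 had the highest Per1 and Nr1d2 and the lowest Npas2 and Per2. Caffeine heart 1 was also the library with the lowest total.

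**Figure D3:**
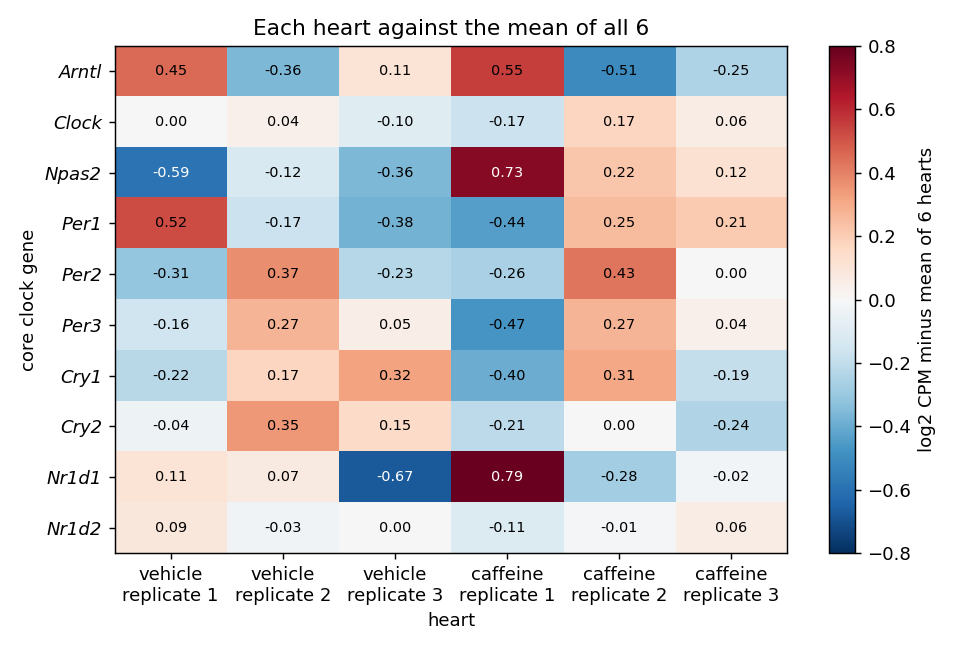
Deviation of each clock gene in each heart from its mean over the 6 hearts, in log2 CPM, with hearts as columns and genes as rows. Caffeine heart 1 shows the widest contrast, from 0.79 for Nr1d1 to -0.47 for Per3.

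To place the hearts on one scale, the mean log2 CPM of the activators Arntl, Clock and Npas2 less that of their targets Per1, Per2, Per3, Nr1d1 and Nr1d2 was taken in each heart. Only its differences between hearts have a meaning, since it sets genes of different length against each other. The genes of one arm did not all move together over the hearts. Among the activators r was -0.83 for Arntl with Clock, 0.00 for Arntl with Npas2 and -0.17 for Clock with Npas2. Among the targets it ran from -0.71 (Per3 with Nr1d1) to 0.81 (Per2 with Per3). The score is therefore a description and not a measure of phase. Its values were -2.69, -2.84 and -2.47 in the vehicle hearts and -2.13, -2.77 and -2.68 in the caffeine hearts. Caffeine heart 1 was the highest, and the other caffeine hearts lay within the vehicle range. The group means, -2.67 ± 0.19 and -2.53 ± 0.35 (SD, n = 3), differed by 0.14, less than the pooled spread of 0.28. With Npas2 left out, a choice made after its low counts were seen, the values were -1.17, -1.61 and -1.10 with vehicle and -1.06, -1.65 and -1.51 with caffeine, and caffeine heart 1 lay beside vehicle hearts 1 and 3. The group difference was then -0.11, so the sign of the score rested on Npas2, with its 5 to 11 counts a heart, and with Npas2 kept it was -0.05 without caffeine heart 1.

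The plain contrast of Arntl with Nr1d1, the gene pair known for opposite phases, gave another order. It was -3.16, -3.93 and -2.73 in the vehicle hearts and almost the same in all caffeine hearts, at -3.75, -3.73 and -3.74. The group means were -3.27 ± 0.61 and -3.74 ± 0.01, and the caffeine values lay inside the vehicle range. The sign of the group difference thus went from 0.14 in the score over both arms to -0.47 in this pair. Arntl less Dbp, a target with E-boxes known in its introns and upstream region, was -3.78, -4.86 and -3.92 with vehicle and -4.05, -4.69 and -4.87 with caffeine, also overlapping.

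Across the 6 hearts Arntl was compared with each of the other 9 clock genes (two-sided exact permutation over 720 orders, adjusted over the 9 relations). With Per3 the relation was inverse, with Pearson's r = -0.92 (exact permutation p = 0.00417, adjusted p = 0.0375) and Spearman's rho = -0.94 (exact permutation p = 0.0167, adjusted p = 0.0750). Without vehicle heart 1 and caffeine heart 1, the samples farthest from the median of Arntl, r was -0.79. On deviations from the treatment means, r was -0.99. No p is given for that value, because deviations from group means cannot be exchanged between the groups. The relation with Per3 no longer passed when the counts were scaled by library size only (r = -0.80, exact permutation adjusted p = 0.142) or thinned to the smallest total (r = -0.86, exact permutation adjusted p = 0.0625). Of 13091 genes compared with Arntl, Per3 had only the 71st lowest r, so an r this low was not particular to clock genes. The permutation test was not run over all genes.

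The other relations did not pass after adjustment. Per2 had r = -0.91 (exact permutation p = 0.0194, adjusted p = 0.0875), rho = -0.94 (exact permutation p = 0.0167, adjusted p = 0.0750), and r = -0.95 without the same 2 hearts. Clock had r = -0.83 (exact permutation p = 0.0472, adjusted p = 0.142), rho = -0.89 (exact permutation p = 0.0333, adjusted p = 0.1), and r = -0.96 without them. For Nr1d1, the repressor of Arntl, r was 0.50 (exact permutation p = 0.324, adjusted p = 0.583) with rho = 0.60, and r was -0.67 without those 2 hearts, so its sign rested on them. Cry1 had r = -0.68 and 0.08 without them (exact permutation p = 0.133, adjusted p = 0.300, over all hearts). Per1, Cry2, Nr1d2 and Npas2 had r between -0.37 and 0.00, with the smallest exact permutation p at 0.453. Without the same 2 hearts r was -0.84 for Npas2, -0.75 for Per1, 0.08 for Cry2 and 0.25 for Nr1d2, so these values rested on those hearts too.

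**Figure D4:**
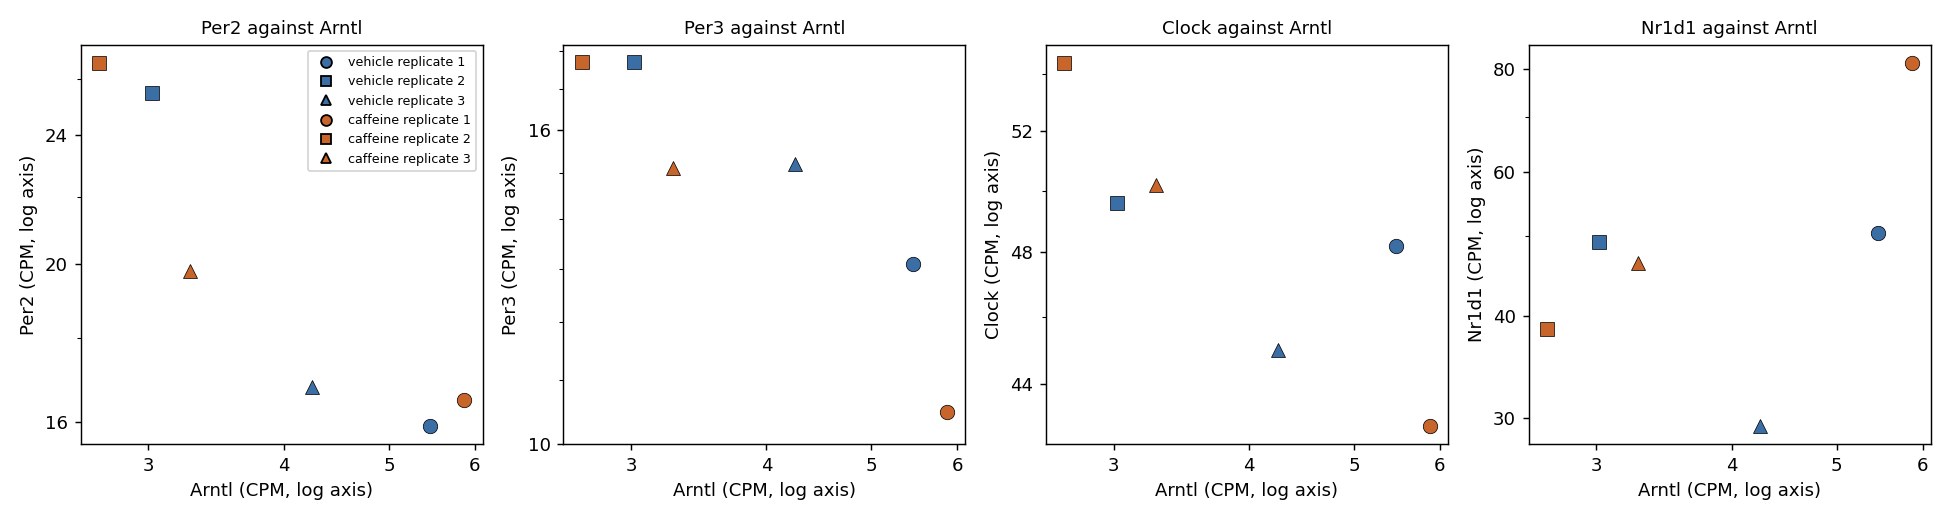
Levels of Per2, Per3, Clock and Nr1d1 against that of Arntl, both in CPM on log axes, with 1 point per heart, vehicle and caffeine in separate colours and a marker shape for each replicate number. Per2, Per3 and Clock lie lower where Arntl is higher (r = -0.91, -0.92 and -0.83), while the Nr1d1 points show no such order (r = 0.50).

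Transcript length was set beside the Arntl values. The median deviation of genes with long exon models (over 6763 bases) less that of genes with short ones (under 2572 bases) was -0.026, 0.118 and 0.038 log2 units in the vehicle and -0.184, 0.052 and -0.025 in the caffeine hearts. It was lowest in caffeine heart 1, where Arntl was highest, and highest in vehicle heart 2 and caffeine heart 2, where Arntl was lowest. Vehicle heart 1 and caffeine heart 3 had nearly the same value but differed in Arntl (5.46 and 3.28 CPM). The r of Arntl with this long-less-short value over the 6 hearts was -0.76. Across 13045 genes, the r between a gene's r with Arntl and its log exon length was -0.30. The genes most like Arntl over the 6 hearts were Rnaseh1 (r = 0.994), Tmem97 (0.985), Cops9 (0.985), Bag1 (0.984) and C1qtnf12 (0.983), with a median exon length of 1375 bases. The genes with the lowest r were Mef2c (-0.998), Mapkbp1 (-0.996), Pacs1 (-0.995), Nptxr (-0.989) and Fam126b (-0.986), with a median of 7602 bases, against 4319 over all genes tested. Per3 ranked 71st, Per2 80th and Clock 263rd from the lowest r of 13091 genes. The exon models of Clock and Per3 are long (13727 and 9608 bases), as is that of Arntl (7523). That of Per2 (5856) is under the 6763 bases used here for long models, though over the median of all genes tested. The part of length in the relations of Arntl was not tested.

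The wider clock pathway was read from a list of 25 genes (the ROR receptors and Arntl2, kinases, ubiquitin pathway genes, further repressors and outputs), of which all but Arntl2 and Fbxl21 were tested. Of these 23, the log2 difference was above 0 for 11 and below 0 for 12, with a median of -0.03, and 0 passed in the quasi-likelihood test. At an unadjusted p of 0.05, 3 of 23 (13.0%) were past the threshold, beside 8.82% of all genes, and the hearts of the groups were apart for 5 (21.7%, beside 14.2%), namely Bhlhe41 higher and Fbxw11, Usp2, Hlf and Wee1 lower with caffeine. Bhlhe41 and Fbxw11 were named after their values were seen, as the other genes of that count. The pathway list was written with earlier results of these data known, so its shares are a description only.

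Wee1, a cell cycle kinase with clock-driven transcription, was measured at 21.2, 26.5 and 21.7 CPM with vehicle and 12.0, 13.3 and 17.3 CPM with caffeine. Its log2 difference was -0.70 (SE 0.16, unadjusted p = 0.00112, adjusted p = 0.183, quasi-likelihood test). Hlf, a D-box activator, was measured at 38.9, 41.8 and 46.6 CPM with vehicle and 20.1, 34.9 and 23.9 CPM with caffeine. Its log2 difference was -0.68 (SE 0.17, unadjusted p = 0.00243, adjusted p = 0.230, quasi-likelihood test). Both were lower in every caffeine heart. Their calls depended on the test, with adjusted p of 0.0152 (Wee1) and 0.0349 (Hlf) in edgeR's exact test and 0.0446 and 0.0325 in DESeq2. Over 18 settings the adjusted p ran from 0.000315 to 0.478 for Wee1 and from 1.11e-05 to 0.538 for Hlf.

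The other pathway genes with the smallest p were Usp2 and Klf15. Usp2, a ubiquitin protease with a strong daily rhythm, stood at 171, 172 and 141 CPM with vehicle and 123, 138 and 133 CPM with caffeine (log2 difference -0.30, SE 0.10, adjusted p = 0.371, quasi-likelihood test). Klf15, a regulator of cardiac metabolism, stood at 114, 77.6 and 101 CPM and 75.6, 73.1 and 96.1 CPM (-0.26, SE 0.15, adjusted p = 0.669, quasi-likelihood test).

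The outputs always named were Dbp, Ciart and Tef. Dbp, whose product binds D-boxes, stood at 77.6, 93.8 and 67.4 CPM with vehicle and 101, 75.3 and 102 CPM with caffeine, overlapping, with a log2 difference of 0.21 (SE 0.14, adjusted p = 0.726, quasi-likelihood test). Ciart, a repressor of the ARNTL dimer, stood at 8.58, 8.22 and 7.79 CPM and 10.5, 8.11 and 9.95 CPM (0.21, SE 0.16, adjusted p = 0.774, quasi-likelihood test). Tef, a relative of Dbp, stood at 228, 210 and 193 CPM and 184, 192 and 209 CPM (-0.11, SE 0.09, adjusted p = 0.792, quasi-likelihood test). Over the 6 hearts the r of these outputs with Arntl was 0.026 for Dbp, 0.014 for Tef and 0.406 for Ciart.

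Per1 also responds to glucocorticoids and to stimuli that switch on immediate early genes, so 12 such genes were read beside it, of which all but Fosb were tested. The log2 difference was above 0 for 8 of 11 and below 0 for 3, with a median of 0.24, and 0 passed in the quasi-likelihood test or in DESeq2. At an unadjusted p of 0.05, 6 of 11 (54.5%) were past the threshold, beside 8.82% of all genes. The groups were apart for 4 (36.4%, beside 14.2% of all genes), 2 higher and 2 lower with caffeine. This list was chosen with earlier results of these data known, so these shares are a description only. By kind, the log2 difference was above 0 for 5 of 5 immediate early genes tested (median 0.51) and for 3 of 6 glucocorticoid targets (median 0.01). Fosb, an immediate early gene under the count filter with 0 to 5 counts a heart, went the other way. It stood at 0.488, 0.472 and 0.303 CPM with vehicle and at 0, 0.225 and 0.234 CPM with caffeine. Fos, an immediate early transcription factor, was measured at 1.27, 2.64 and 2.02 CPM with vehicle and 4.05, 5.75 and 3.63 CPM with caffeine. Its log2 difference was 1.17 (SE 0.32, unadjusted p = 0.00352, adjusted p = 0.269, quasi-likelihood test). Zbtb16, a glucocorticoid target, was lower in every caffeine heart, at 208, 161 and 162 CPM with vehicle and 119, 133 and 142 CPM with caffeine (-0.43, SE 0.12, unadjusted p = 0.00361, adjusted p = 0.269, quasi-likelihood test). Other glucocorticoid targets, named after their values were seen, lay on both sides. Fkbp5 had a log2 difference of -0.53 (unadjusted p = 0.0135, adjusted p = 0.384, quasi-likelihood test) and Mt2 one of 0.73 (unadjusted p = 0.00543, adjusted p = 0.297, quasi-likelihood test). Per1 itself had equal group means, and the part of handling or hormone state at collection was not tested.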

How the data were processed

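The authors isolated mRNA with poly(A) beads, made libraries with a NEBNext kit and sequenced single-end reads. They checked the reads with FastQC and aligned them to the mouse genome with TopHat2. Reads per gene were counted with HTSeq on Ensembl release 79 (GRCm38). The authors deposited 1 table of raw counts per heart, which names genes by identifier. Tool versions and the strand setting are not given in the sources used here. The sample titles gave group and replicate. Symbols, coordinates and exon lengths came from GENCODE release 21 (mouse, GRCm38), and start-site windows from RefSeq.

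Counts were analysed in R 4.3.3 with edgeR 4.0.16. Genes were kept by filterByExpr (minimum count 10, total 15), which left 13092 and dropped Npas2. TMM factors scaled the libraries, and a quasi-likelihood F test compared 3 caffeine with 3 vehicle hearts, with Benjamini-Hochberg adjustment over all genes tested. A call needed an adjusted p of 0.05 and a 1.5-fold change. Intervals are 95%. Log2 CPM used a prior count of 2. The scripts were tested on simulated data. Alternatives were other edgeR tests, DESeq2 1.42.0, limma 3.58.1 (voom), other scalings, filters and prior counts, a replicate block, thinning and leaving out each heart. Replicates differed by more than sampling noise.

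The members and lists were chosen with earlier results of these data known. All members were named. Of the pathway and stress-responsive lists, every called gene was to be named, and otherwise the 4 and 2 with the smallest p, besides Dbp, Tef, Ciart, genes with exons overlapping a member, and the 5 genes with the highest and the 5 with the lowest r with Arntl.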

Additional observations from a re-analysis of the deposited data

How the results depend on the processing

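The count of clock genes past the thresholds was 0 under every alternative run. Over all genes, 14 passed in the quasi-likelihood test, 94 in edgeR's exact test, 101 in the likelihood-ratio test, 67 in DESeq2, 27 with scaling by library size only and 240 without the count filter. Leaving out 1 heart gave 4 to 28 (vehicle 1 27, vehicle 2 4, vehicle 3 28, caffeine 1 8, caffeine 2 22, caffeine 3 4). Of the pathway list, 2 genes (Hlf and Wee1) passed in the exact test, the likelihood-ratio test, DESeq2 and without the filter, and 0 to 1 with 1 heart left out (Hlf without caffeine heart 2). Of the stress-responsive list, 3 (Fos, Mt2 and Nr4a1) passed without the filter and 0 to 1 with 1 heart left out (Mt2 without caffeine heart 2).

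Small differences changed sign. With library size only, the log2 difference was -0.03 for Clock and -0.06 for Per1, and without the filter it was -0.02 for Per1. With 1 heart left out, it ran from -0.50 to 0.10 for Arntl, -0.03 to 0.14 for Clock, -0.17 to 0.32 for Per1, -0.10 to 0.36 for Per2, -0.25 to 0.10 for Per3, -0.02 to 0.56 for Nr1d1 and -0.08 to 0.00 for Nr1d2. Cry1 (-0.40 to -0.02) and Cry2 (-0.40 to -0.20) kept their sign. The arm difference of 0.14 was -0.47 when taken as Arntl less Nr1d1, -0.11 without Npas2, and -0.05 to 0.26 with 1 heart left out (lowest without caffeine heart 1). Of the Arntl relations, 1 passed, and 0 with library size only or after thinning. The cause of these differences was not tested.

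Same-numbered hearts of the groups did not deviate together (r of 0.05, -0.03 and -0.04 over all genes), so the numbers were not taken as pairs. With the replicate block 40 of all genes and 0 clock genes passed.

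Low counts of Arntl and Npas2 limit what can be said of them, and 3 hearts a group cannot give a permutation p under 0.1. Without a collection time, a difference in phase and one in level cannot be told apart.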
